A study of Homo sapiens with 12 samples.

Results

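Complement genes were followed in poly(A)-selected RNA-seq of 12 libraries from human cells labelled as the liver tumour lines Hep3B and HepG2. In these cells the adhesion molecule CD146, the product of MCAM, had been lowered or raised. The set was a list of 33 genes, taken by symbol from the 61806 gene IDs of the count table: the C1 proteases and their relatives, the lectin pathway, C4, C2, C3 and the alternative pathway, the terminal components, the soluble and membrane regulators, and the anaphylatoxin receptors. All 33 were found. Cells labelled Hep3B were grown in DMEM with serum and carried a Tet-on-induced shRNA, against CD146 in 3 libraries (CD146 sh) and a control hairpin in 3 libraries (Con sh). HepG2 cells were grown in MEM with serum and sodium pyruvate and carried a pLVX vector, with CD146 in 3 libraries (CD146oe) and without it in 3 libraries (pLVX). The shRNA titles end in a number from 1 to 3 that could stand for a hairpin or for a replicate, and since the treatment label does not change within a group the 3 were taken as replicates. Separate cultures are not named in the labels, so the p-values rest on a spread between libraries that could be technical only.

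Complement is a cascade of plasma proteins that tags and lyses targets. The classical pathway starts with C1 on antibody, the lectin pathway with mannose-binding lectin and its proteases, and the alternative pathway with C3 and factor B; all of them cleave C3 and C5, release the anaphylatoxins C3a and C5a, and end in the C5b to C9 pore. Hepatocytes secrete most of the plasma components, while nearly every cell carries CD46, CD55 and CD59 on its surface to stop the cascade on its own membrane.

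Totals lay between 12.77 and 18.13 (in units of 1e6 counts) per library. MCAM, which checks the labels, stood at 22.0, 24.2 and 26.9 counts per 1e6 counts of the library (CPM) in CD146 sh libraries, against 114, 112 and 119 CPM in Con sh libraries, and at 1946, 1954 and 1897 CPM in CD146oe libraries, against 22.9, 23.5 and 23.7 CPM in pLVX libraries. The line label was checked on 18 hepatocyte markers. In HepG2, 17 of the 18 averaged at least 10 CPM in either group, and their sum was 61831 to 62412 CPM in CD146oe libraries and 65668 to 67805 CPM in pLVX libraries. In the libraries labelled Hep3B none of the 18 averaged 10 CPM in either group. Their sum there was 4.63 to 74.7 CPM in CD146 sh libraries and 6.24 to 7.44 CPM in Con sh libraries, where APOA2, APOC3, APOH, TTR and FGG had no count. These values put the line label in doubt, and the libraries are therefore called "labelled Hep3B" throughout. Which cells they came from was not tested. Replicate 3 of CD146 sh also held traces of transcripts that are abundant in HepG2, at 0.111% of their HepG2 level over 56 genes. The other libraries labelled Hep3B gave 0.0108% to 0.0366% over 21 to 23 genes. Each set held genes nearly absent from the remaining libraries labelled Hep3B, so these percentages are not over the same transcripts. ALB had 298 counts in CD146 sh replicate 3 and 0 to 5 in the other libraries labelled Hep3B. At 0.111% the HepG2 level of C3 comes to 4.16 CPM. C3 stood at 157 CPM in CD146 sh replicate 3 on unscaled totals and at 155 and 157 CPM in the other CD146 sh libraries.

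The soluble regulator genes C4BPB and C4BPA and the membrane regulator genes CD55 and CD46 lie in this order on the plus strand of chromosome 1, within 706.671 kb of GRCh38 (GENCODE version 29). C4BPB spans chr1:207088842-207099993, C4BPA chr1:207104262-207144972, CD55 chr1:207321376-207386804 and CD46 chr1:207752057-207795513. CD59 lies on the minus strand at chr11:33703010-33736491. Their start regions are printed because these 5 genes gave some of the strongest responses, and because 4 of them lie on 1 stretch of chromosome 1, with other genes between them. Each sequence is 300 bases of RefSeq (GRCh38.p14), from 250 bases before to 50 after the most upstream start listed, at chr1:207088610-207088909, chr1:207103983-207104282, chr1:207321428-207321727 and chr1:207751788-207752087 on the plus strand and chr11:33736430-33736729 on the minus strand, in the order shown. Capitals mark every match to one of 9 short motifs.
C4BPB: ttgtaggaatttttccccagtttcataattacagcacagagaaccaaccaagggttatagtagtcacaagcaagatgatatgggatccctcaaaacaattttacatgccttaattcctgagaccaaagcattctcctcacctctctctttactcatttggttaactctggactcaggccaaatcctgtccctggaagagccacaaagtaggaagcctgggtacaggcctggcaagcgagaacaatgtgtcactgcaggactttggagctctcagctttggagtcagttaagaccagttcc
C4BPA: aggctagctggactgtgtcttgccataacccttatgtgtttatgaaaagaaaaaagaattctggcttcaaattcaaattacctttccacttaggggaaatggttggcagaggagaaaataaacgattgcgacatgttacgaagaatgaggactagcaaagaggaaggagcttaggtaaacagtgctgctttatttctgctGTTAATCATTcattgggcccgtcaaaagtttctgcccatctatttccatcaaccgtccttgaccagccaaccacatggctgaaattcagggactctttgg
CD55: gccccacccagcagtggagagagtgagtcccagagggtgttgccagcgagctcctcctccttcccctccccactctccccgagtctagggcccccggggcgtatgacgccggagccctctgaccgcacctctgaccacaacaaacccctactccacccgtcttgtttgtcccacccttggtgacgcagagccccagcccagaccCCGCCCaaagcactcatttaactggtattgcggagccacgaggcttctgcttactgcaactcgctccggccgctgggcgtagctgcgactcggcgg
CD46: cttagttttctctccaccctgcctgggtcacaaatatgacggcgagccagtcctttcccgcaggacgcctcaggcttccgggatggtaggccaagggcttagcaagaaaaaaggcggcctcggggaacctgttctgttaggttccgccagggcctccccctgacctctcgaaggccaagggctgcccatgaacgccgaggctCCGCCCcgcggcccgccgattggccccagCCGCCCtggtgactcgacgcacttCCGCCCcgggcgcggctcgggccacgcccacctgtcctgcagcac
CD59: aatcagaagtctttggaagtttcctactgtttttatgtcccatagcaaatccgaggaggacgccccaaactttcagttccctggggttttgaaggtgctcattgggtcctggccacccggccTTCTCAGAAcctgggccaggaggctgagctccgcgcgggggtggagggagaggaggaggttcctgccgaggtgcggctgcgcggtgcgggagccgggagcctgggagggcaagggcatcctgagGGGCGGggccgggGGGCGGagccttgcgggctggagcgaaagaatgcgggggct

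The motifs were searched on both strands, and each is given with the share of the 35116 RefSeq start regions that hold it: AP-1 (TGANTCA, 7.71%), STAT (TTCNNNGAA, 7.66%), NF-kB (GGG and TTTCC with 2 bases between, 1.91%), an interferon response element (GAAA and GAAA with 2 bases between, 3.57%), C/EBP (TTGCNNAA, 10.5%), HNF1 (GTTAAT and ATT with 1 base between, 0.322%), TEAD (GGAATG, 14.0%), SP1 (GGGCGG, 45.0%) and CRE (TGACGTCA, 1.85%). No motif matched in all 4 genes of chromosome 1. The C4BPB region, with 45.3% G and C, held none of the 9. In C4BPA, with 42.3% G and C, the capitals are an HNF1 match 50 to 41 bases before the start. CD55 and CD46 had G and C contents of 65.0% and 67.0% and held 1 and 3 SP1 matches. The CD59 region, with 64.3% G and C, held a STAT match 128 to 120 bases before the start and 2 SP1 matches. A match describes these letters only. Of the 33 genes, 25 had an entry in the RefSeq table. CFB, the member with the largest rise after knockdown, is among them but is not printed. Its region held 1 STAT match, 1 match to the interferon response element and 1 TEAD match. C3, CLU, C1S, SERPING1, C4A, C4B, C8G and FCN3 had none.

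Levels were compared between genes as the deposited FPKM, which are scaled by gene length. Regulators held most of the top of the order in the libraries labelled Hep3B. In CD146 sh libraries C4BPB averaged 189 FPKM, CD55 181 FPKM and CD46 179 FPKM, and the ranges of the last pair overlapped. C1QBP, a mitochondrial protein that also binds the globular heads of C1q, followed at 90.7 FPKM, then CD59 at 82.5 FPKM, clusterin (CLU) at 57.0 FPKM and C3 at 13.5 FPKM. In Con sh libraries C1QBP led at 118 FPKM. CD55 at 99.8 FPKM, CD46 at 91.9 FPKM and C4BPB at 91.8 FPKM overlapped with their neighbour in the order, as did CD59 at 33.8 FPKM and CLU at 32.1 FPKM, and C3 stood at 5.90 FPKM.

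In HepG2 the order was led by C3, the component on which all pathways converge, at 301 FPKM in CD146oe libraries and 345 FPKM in pLVX libraries. C1QBP followed at 84.0 FPKM in CD146oe libraries and 86.8 FPKM in pLVX libraries, then CLU at 54.1 FPKM in CD146oe libraries and 62.8 FPKM in pLVX libraries. CD46 and C4BPB overlapped at 29.3 and 27.8 FPKM in CD146oe libraries and at 30.0 and 28.3 FPKM in pLVX libraries. Factor I (CFI), the protease that cleaves C3b and C4b, stood at 23.2 FPKM in CD146oe libraries and 21.9 FPKM in pLVX libraries. C5 stood at 19.5 FPKM in CD146oe libraries and 19.1 FPKM in pLVX libraries, and C2 at 18.1 FPKM in CD146oe libraries and 18.8 FPKM in pLVX libraries.

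Many members were barely read. At most 3 counts in every library, taken as the floor of detection and worth 0.165 to 0.235 CPM, were found for 8 of the 33 genes in CD146 sh libraries, 9 in Con sh libraries, 5 in CD146oe libraries and 5 in pLVX libraries. FCN3, a lectin pathway recognition protein, and C7, a terminal component, were at or under it in all 12 libraries. MBL2, which encodes mannose-binding lectin, and C8B, a chain of C8, had 0 counts in all 6 libraries labelled Hep3B. C4B, COLEC11 and C8A were also at or under the floor in both of those groups. A mean of at least 1 FPKM was reached by 14 members in CD146 sh libraries, 11 in Con sh libraries, 24 in CD146oe libraries and 24 in pLVX libraries. Floors cover counting error only, and 20 of the 33 genes overlap another annotated gene, so their counts are uncertain where the counting could split or share reads.

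**Figure D1:**
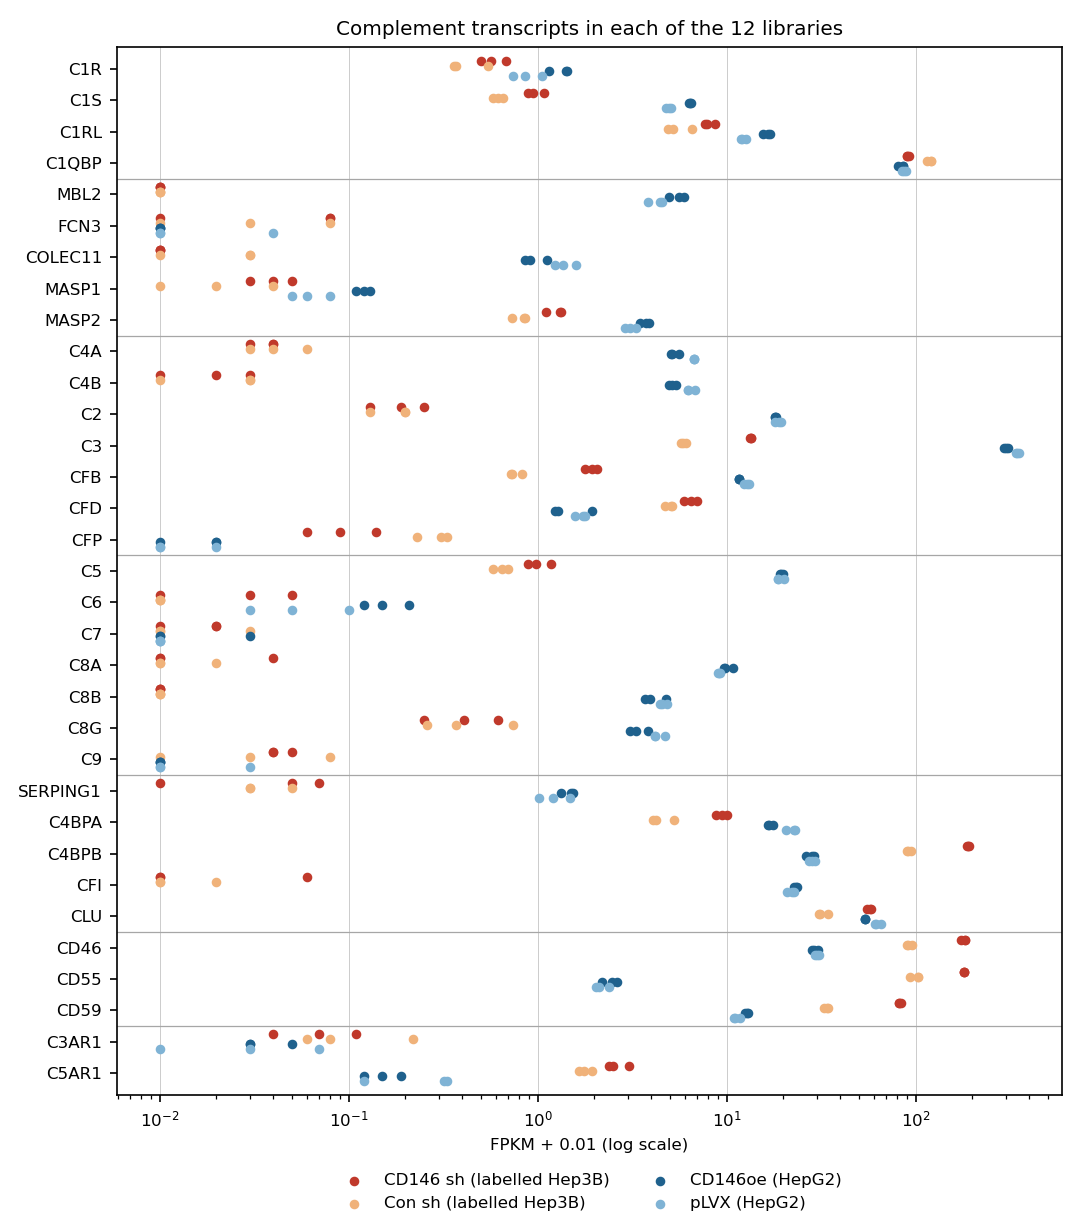
FPKM plus 0.01 of the 33 complement genes on a log axis, with 1 point per library and a row per gene, grouped by role. CD55, CD46, CD59 and C4BPB sit to the right in the libraries labelled Hep3B, with C4BPB at a mean of 189 FPKM in CD146 sh libraries, while C3, CFI, C8A and MBL2 sit to the right in HepG2.

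Knockdown of CD146 in the libraries labelled Hep3B went with higher transcripts of the surface inhibitors, the C4b-binding protein chains, C3 and factor B. By edgeR's quasi-likelihood test with Benjamini-Hochberg adjustment over all genes tested, 18 of the 33 members passed the filter on low counts, 15 rose, 2 fell and C2 was not called. Changes were common in this comparison: 55.3% of the 16968 genes tested were called, 26.8% higher and 28.5% lower, and the groups did not overlap in 59.8%. The median log2 fold change was 0.70 over the 18 members and 0.00 over all genes tested. A rise of at least 0.8 on the log2 scale, a limit chosen after the values were seen, was reached by 8 members and by 8.65% of all genes tested. The 15 members not tested were MBL2, FCN3, COLEC11, MASP1, C4A, C4B, C6, C7, C8A, C8B, C8G, C9, SERPING1, CFI and C3AR1. In bulk RNA, fewer cells that express a gene and less RNA per cell cannot be told apart. With 3 libraries against 3, an exact permutation test on a single gene cannot go below 0.1.

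**Figure D2:**
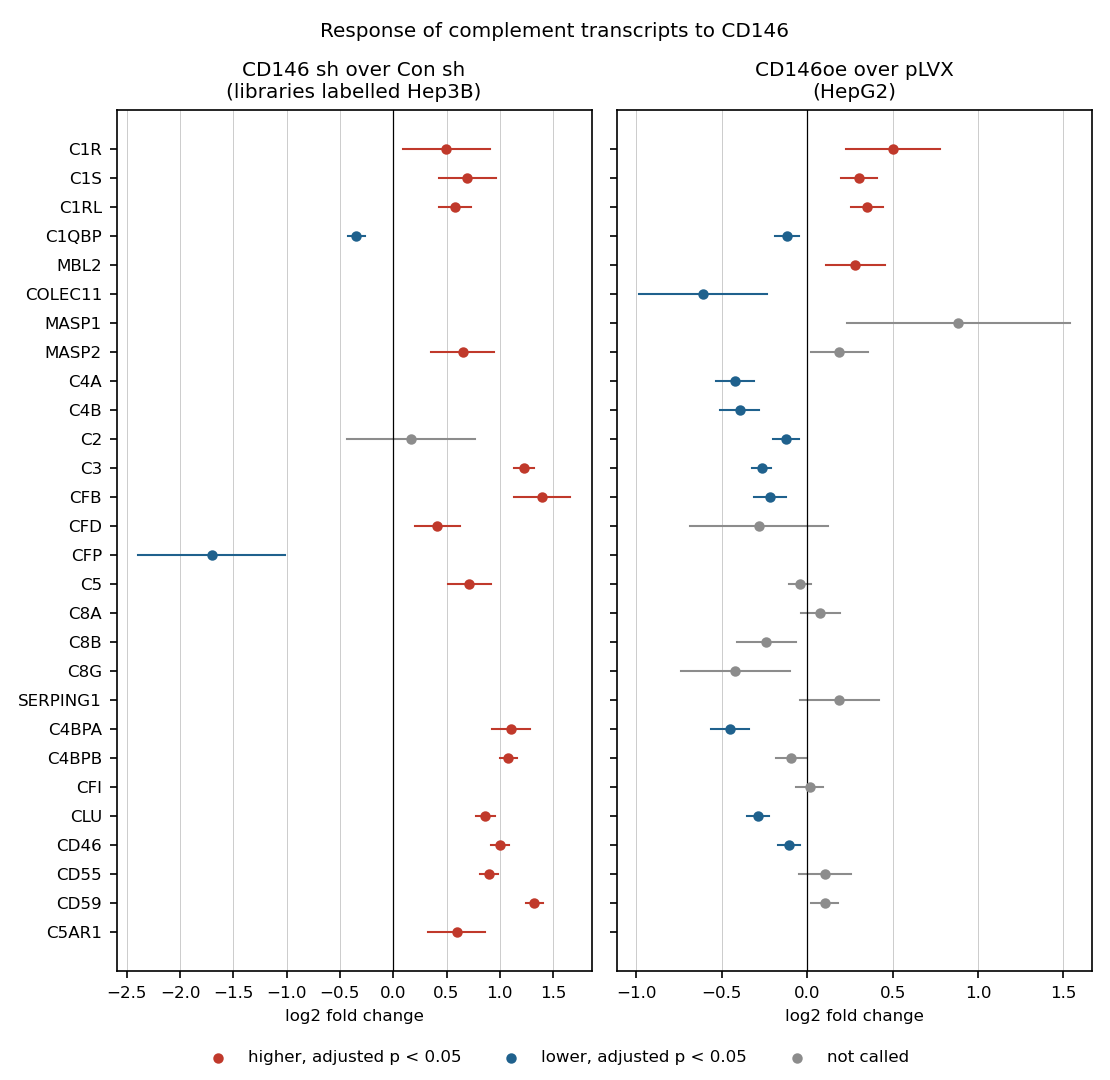
Log2 fold change with its 95% interval for each complement gene tested, CD146 sh over Con sh on the left and CD146oe over pLVX on the right, on axes of different range. In the left panel 15 genes lie to the right of 0 and are called higher, while in the right panel no called change exceeds 0.61 in size.

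Among the membrane regulators, all 3 rose. CD46 (ENSG00000117335), a cofactor for the cleavage of C3b and C4b by factor I, stood at 2824, 2769 and 2877 CPM in CD146 sh libraries, against 1370.2, 1401 and 1460.3 CPM in Con sh libraries. All CD146 sh libraries lay far above all Con sh libraries. The mean was 2824 ± 54.0 CPM in CD146 sh libraries and 1411 ± 45.7 CPM in Con sh libraries (SD, n = 3 each), with a log2 fold change of 1.00 (SE 0.04, edgeR adjusted p = 1.5e-22). CD55 (ENSG00000196352), the GPI-anchored decay accelerator of the C3 and C5 convertases, stood at 1850.4, 1895 and 1898 CPM in CD146 sh libraries, against 948, 1049.8 and 1039 CPM in Con sh libraries. Its groups were well apart, with the lowest Con sh library at replicate 1, and the log2 fold change was 0.89 (SE 0.04, edgeR adjusted p = 1.3e-20).

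CD59 (ENSG00000085063), the GPI-anchored protein that blocks the insertion of C9, had the highest log2 fold change of the 3. It stood at 868, 879 and 906 CPM in CD146 sh libraries, against 342, 356 and 361 CPM in Con sh libraries. All 3 CD146 sh libraries were above 2 times any Con sh library, and the log2 fold change was 1.32 (SE 0.04, edgeR adjusted p = 7.9e-27). Its neighbours moved in the same direction: of the 17 other genes tested within 1 Mb of CD59, 15 rose and 1 fell, with a median log2 fold change of 0.67. Whether the response of CD59 and that of the region have a common source was not tested. CD59 also overlaps another protein-coding gene model on its strand, so its counts are uncertain in that respect.

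The soluble regulators that were tested rose as well. C4BPB (ENSG00000123843), the beta chain of C4b-binding protein, which carries protein S, stood at 602, 624 and 617 CPM in CD146 sh libraries, against 284, 289 and 299.6 CPM in Con sh libraries. No library of one group came near the other, and the log2 fold change was 1.08 (SE 0.04, edgeR adjusted p = 5.1e-24). C4BPA (ENSG00000123838), the alpha chain that binds C4b, was far less abundant, at 24.8, 23.9 and 22.2 CPM in CD146 sh libraries, against 12.7, 10.3 and 9.92 CPM in Con sh libraries. Its groups did not overlap either, and its log2 fold change was 1.10 (SE 0.09, edgeR adjusted p = 3.8e-13).

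CLU (ENSG00000120885) encodes clusterin, a secreted chaperone that binds terminal complement complexes. It stood at 350.3, 372 and 369 CPM in CD146 sh libraries, against 212, 192 and 195 CPM in Con sh libraries. The groups were separate, and the log2 fold change was 0.87 (SE 0.04, edgeR adjusted p = 5.5e-20). SERPING1, the C1 inhibitor, and CFI were not tested here, with means of 0.231 and 0.0964 CPM in CD146 sh libraries and 0.175 and 0.0197 CPM in Con sh libraries.

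The 4 regulator genes of chromosome 1 rose by similar amounts, between 0.89 and 1.10 on the log2 scale, and the genes around them moved in both directions. Of the 15 other genes tested from 1 Mb before the first to 1 Mb after the last of them, 4 rose (IL24, FCMR, C1orf116 and PFKFB2), 7 fell and 4 were not called, with a median log2 fold change of -0.28. The 4 that rose lie before C4BPB, and the value depends on the window: of the 8 other genes tested within 1 Mb of CD46, 4 rose and 3 fell, with a median of 0.68. PFKFB2, which makes fructose 2,6-bisphosphate and lies just before C4BPB, averaged 272 CPM in CD146 sh libraries and 129 CPM in Con sh libraries, with a log2 fold change of 1.08 (edgeR adjusted p = 2.5e-23). YOD1, a deubiquitinase gene inside the PFKFB2 locus on the other strand, averaged 134 CPM in CD146 sh libraries and 175 CPM in Con sh libraries and fell by 0.39 on the log2 scale (edgeR adjusted p = 2.3e-08). Beyond CD46, MIR29B2CHG and PLXNA2 fell by 0.67 and 0.55 on the log2 scale by the same test.

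**Figure D3:**
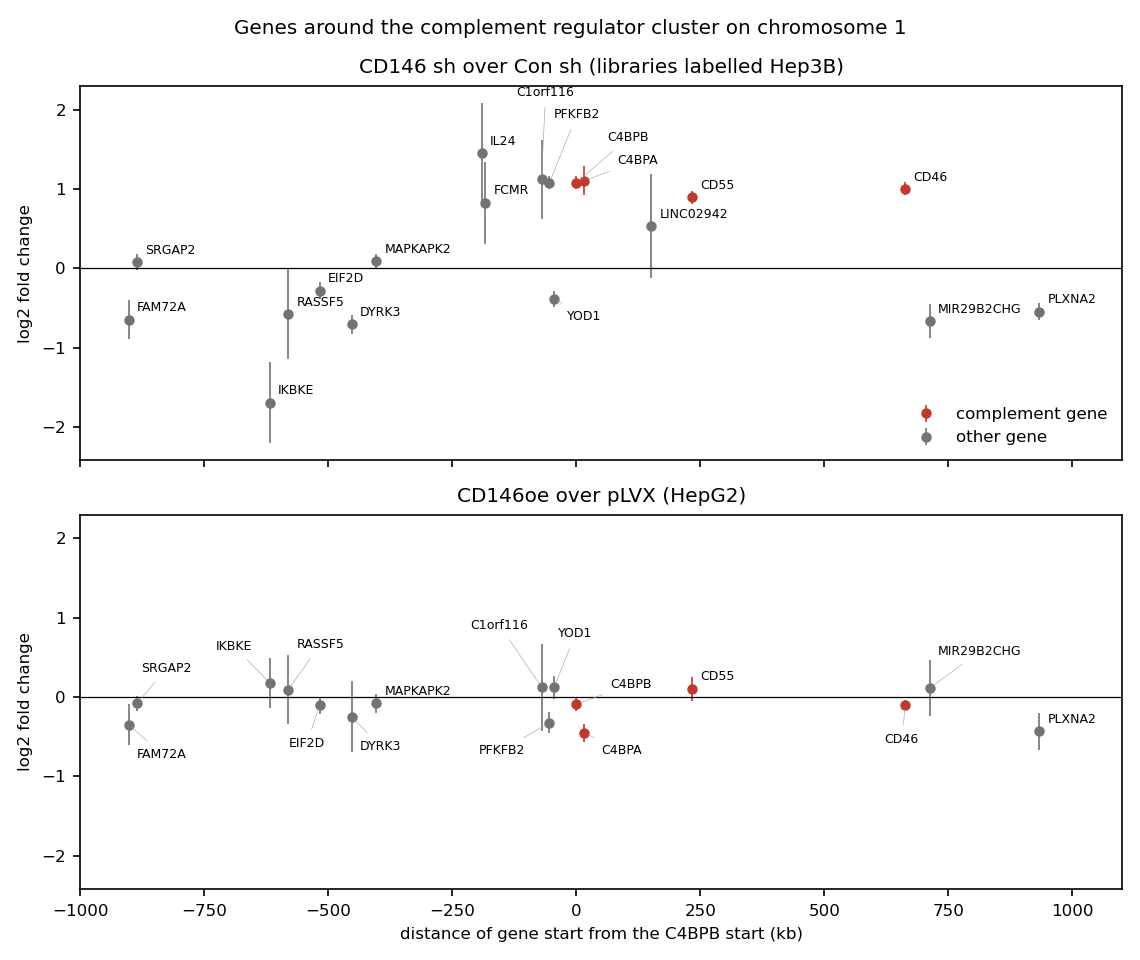
Log2 fold change with its 95% interval against the distance of each gene's start from the start of C4BPB in kb, CD146 sh over Con sh above and CD146oe over pLVX below. The 4 complement genes lie near 1 in the upper panel between neighbours on both sides of 0, with MIR29B2CHG and PLXNA2 below 0, and between -0.45 and 0.11 in the lower panel.

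C3 and factor B, which together form the alternative pathway convertase, rose in the same libraries. C3 (ENSG00000125730) stood at 155, 160.0 and 159.9 CPM in CD146 sh libraries, against 66.8, 65.9 and 70.0 CPM in Con sh libraries. The 3 CD146 sh values were close together and all above the Con sh values, with a log2 fold change of 1.23 (SE 0.05, edgeR adjusted p = 5.8e-24). CFB (ENSG00000243649), which encodes factor B, was lower in abundance, at 11.0, 9.68 and 10.4 CPM in CD146 sh libraries, against 3.78, 4.33 and 3.74 CPM in Con sh libraries. Its groups did not overlap, and its log2 fold change of 1.40 (SE 0.13, edgeR adjusted p = 1.3e-11) was the largest rise among the 18 members tested. CFB overlaps C2 and another protein-coding gene model on its strand, so the counts of CFB and C2 are uncertain in that respect. Genes around C3 and CFB moved little as a group, with a median log2 fold change of 0.03 over 46 neighbours of C3 and 0.11 over 71 neighbours of CFB within 1 Mb.

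Factor D (CFD), the protease that cleaves factor B, stood at 11.8, 12.9 and 11.1 CPM in CD146 sh libraries, against 9.21, 8.51 and 9.15 CPM in Con sh libraries. The groups were separate, and the log2 fold change was 0.41 (SE 0.11, edgeR adjusted p = 1.2e-03). Its region moved by about as much: of 66 other genes tested within 1 Mb, 39 rose and 3 fell, with a median of 0.39. Properdin (CFP), which stabilises the alternative convertase, went the other way, at 0.443, 0.297 and 0.723 CPM in CD146 sh libraries, against 1.65, 1.80 and 1.25 CPM in Con sh libraries. These are few counts, but the groups did not overlap, and the log2 fold change was -1.70 (SE 0.35, edgeR adjusted p = 7.7e-05). C2, the classical counterpart of factor B, was low in both groups, at 1.71, 1.31 and 0.868 CPM in CD146 sh libraries and 1.36, 1.37 and 0.832 CPM in Con sh libraries. Its groups overlapped, and its log2 fold change was 0.17 with a 95% interval from -0.43 to 0.77 (edgeR adjusted p = 0.664).

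**Figure D4:**
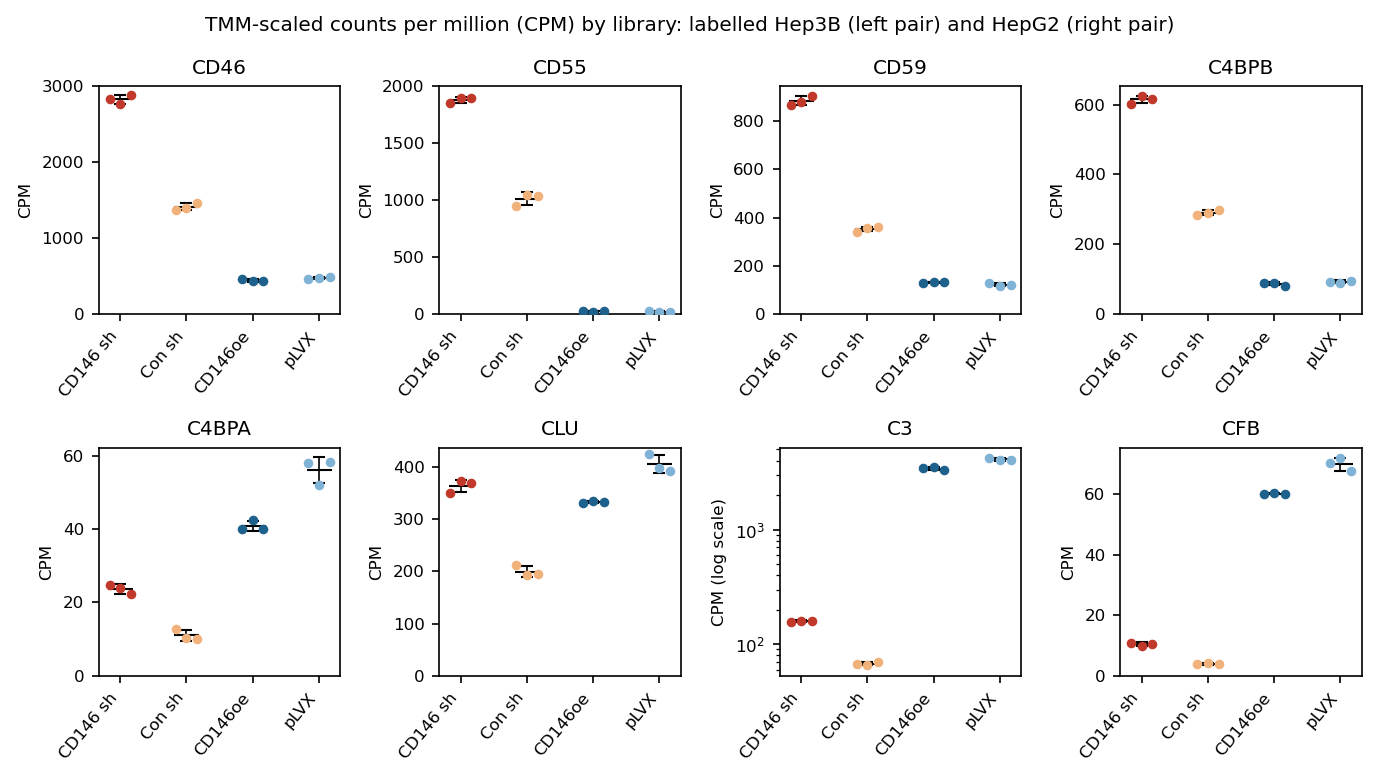
TMM-scaled CPM of 8 complement genes, with 1 point per library and bars for the mean and SD of each group of 3, on a log axis for C3 and from 0 for the others. In each panel the CD146 sh points stand above the Con sh points, for example at 868 to 906 CPM against 342 to 361 CPM for CD59, and CD55 is near 0 on this scale in HepG2.

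The C1 proteases rose by less. C1S, which cleaves C4 and C2, stood at 8.91, 7.48 and 7.95 CPM in CD146 sh libraries, against 5.31, 5.05 and 4.69 CPM in Con sh libraries. The groups were separate, with a log2 fold change of 0.70 (SE 0.14, edgeR adjusted p = 3.3e-05). C1RL, a relative of C1r, stood at 43.5, 39.9 and 39.0 CPM in CD146 sh libraries, against 32.1, 24.2 and 25.6 CPM in Con sh libraries. Its Con sh replicate 1 was the nearest to the other group, and the log2 fold change was 0.58 (SE 0.08, edgeR adjusted p = 2.6e-08). C1R, the protease that activates C1s and whose gene overlaps C1RL, stood at 3.93, 2.91 and 3.33 CPM in CD146 sh libraries, against 3.07, 2.02 and 2.08 CPM in Con sh libraries. Its groups overlapped, and its log2 fold change of 0.50 (SE 0.21, edgeR adjusted p = 0.0412) kept its call in 3 of 11 alternatives, with adjusted p from 0.0105 to 0.202.

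C1QBP was the other member that fell. It stood at 210.1, 215 and 220.0 CPM in CD146 sh libraries, against 276, 279 and 264 CPM in Con sh libraries. The groups did not overlap, and the log2 fold change was -0.35 (SE 0.04, edgeR adjusted p = 3.4e-09). C1QBP overlaps RPAIN and DHX33 in the annotation.

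Of the lectin pathway only MASP2, the protease that cleaves C4 and C2, could be tested. It stood at 6.69, 5.76 and 6.87 CPM in CD146 sh libraries, against 4.25, 3.68 and 4.28 CPM in Con sh libraries. All CD146 sh libraries were the higher ones, with a log2 fold change of 0.65 (SE 0.15, edgeR adjusted p = 3.0e-04). Of the terminal components only C5 was tested, at 19.8, 16.7 and 15.2 CPM in CD146 sh libraries, against 11.5, 10.7 and 9.57 CPM in Con sh libraries. The groups were separate, and the log2 fold change was 0.71 (SE 0.10, edgeR adjusted p = 1.9e-07). C5AR1, the C5a receptor, stood at 7.47, 7.18 and 9.18 CPM in CD146 sh libraries, against 5.61, 4.83 and 5.17 CPM in Con sh libraries, again with no overlap and with a log2 fold change of 0.59 (SE 0.14, edgeR adjusted p = 3.6e-04). C3AR1, the C3a receptor, stayed at or under 0.722 CPM in every library.

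Markers of other cells were set beside these rises. The 7 endothelial markers summed to 39.6 to 40.2 CPM in CD146 sh libraries and 20.7 to 24.8 CPM in Con sh libraries, with KDR at 0 in all 6. Most of that gap was CDH5, at 19.1 to 20.6 CPM in CD146 sh libraries and 0.660 to 0.901 CPM in Con sh libraries. The 8 fibroblast markers summed to 96.1 to 118.9 CPM in CD146 sh libraries and 61.7 to 71.0 CPM in Con sh libraries. Most of these sums was COL1A1, at 82.5 to 96.9 CPM in CD146 sh libraries and 54.2 to 60.9 CPM in Con sh libraries. The 10 leukocyte and macrophage markers summed to 11.1 to 14.3 CPM in CD146 sh libraries and 10.1 to 10.7 CPM in Con sh libraries, with TYROBP and CD3E at 0. The 7 cholangiocyte markers summed to 179 to 183 CPM in CD146 sh libraries and 211 to 227 CPM in Con sh libraries. Their part in the responses of the complement genes was not tested.

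Overexpression of CD146 in HepG2 went with small shifts: C1 proteases were higher, while C3, C4, factor B, the C4b-binding protein alpha chain and clusterin were lower. Of the 33 members 26 passed the filter, 4 rose, 10 fell and 12 were not called by edgeR's quasi-likelihood test. The calls of C1R, C1QBP, MBL2, COLEC11, C2 and CD46 were kept in only 4 to 8 of 11 alternatives. Over all 15300 genes tested 19.8% were called, 9.55% higher and 10.3% lower, and the groups did not overlap in 33.6%. The median log2 fold change was -0.10 over the members and 0.00 over all genes tested. The 7 members not tested were FCN3, CFP, C6, C7, C9, C3AR1 and C5AR1. On unscaled library totals 79.5% of all called genes were higher, against 48.1% with TMM scaling, so directions of small changes are relative to that scaling.

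C3 stood at 3411, 3485 and 3323 CPM in CD146oe libraries, against 4220.1, 4068 and 4011 CPM in pLVX libraries. All CD146oe libraries were lower, with a mean of 3406 ± 81.6 CPM in CD146oe libraries and 4099.7 ± 108 CPM in pLVX libraries (SD, n = 3 each) and a log2 fold change of -0.27 (SE 0.03, edgeR adjusted p = 5.1e-11). CFB stood at 60.0, 60.3 and 60.2 CPM in CD146oe libraries, against 70.2, 71.8 and 67.5 CPM in pLVX libraries. The groups were separate, with a log2 fold change of -0.22 (SE 0.05, edgeR adjusted p = 6.1e-04).

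The C4 genes, whose product is cleaved by C1s and MASP2, were read in HepG2. C4A stood at 39.2, 35.5 and 35.7 CPM in CD146oe libraries, against 49.9, 49.2 and 49.0 CPM in pLVX libraries. The groups did not overlap, and the log2 fold change was -0.42 (SE 0.06, edgeR adjusted p = 5.9e-08). C4B stood at 38.0, 36.0 and 34.5 CPM in CD146oe libraries, against 46.5, 49.7 and 46.1 CPM in pLVX libraries, and also fell without overlap, with a log2 fold change of -0.40 (SE 0.06, edgeR adjusted p = 4.4e-07). The copies are nearly identical, and the ratio of C4A to C4B counts was 0.986 to 1.07 in every HepG2 library, so these are uncertain as separate measurements. C2 stood at 126, 127 and 127 CPM in CD146oe libraries, against 143, 132 and 139 CPM in pLVX libraries. Its groups did not overlap, but the log2 fold change was only -0.12 (SE 0.04, edgeR adjusted p = 0.0173), and the call was kept in 4 of 11 alternatives, with edgeR, DESeq2 or limma adjusted p up to 0.365. Factor D was not called at 2.64 ± 0.719 CPM in CD146oe libraries and 3.15 ± 0.204 CPM in pLVX libraries (edgeR adjusted p = 0.380, n = 3 each).

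Of the regulators, C4BPA showed the largest change. It stood at 40.2, 42.5 and 40.2 CPM in CD146oe libraries, against 58.0, 52.0 and 58.4 CPM in pLVX libraries. The groups were well apart, and the log2 fold change was -0.45 (SE 0.06, edgeR adjusted p = 5.7e-09). Its partner C4BPB was not called, at 90.4, 89.1 and 82.0 CPM in CD146oe libraries and 93.1, 89.2 and 96.5 CPM in pLVX libraries, which overlapped (log2 fold change -0.09, edgeR adjusted p = 0.150). CLU stood at 331, 334 and 332 CPM in CD146oe libraries, against 425, 398 and 393 CPM in pLVX libraries. It fell in all CD146oe libraries, with a log2 fold change of -0.29 (SE 0.03, edgeR adjusted p = 6.9e-10). SERPING1 averaged 10.3 ± 0.802 CPM in CD146oe libraries and 9.08 ± 1.72 CPM in pLVX libraries, and CFI 120.5 ± 2.58 CPM in CD146oe libraries and 119 ± 5.58 CPM in pLVX libraries, and edgeR called neither (adjusted p = 0.296 for SERPING1 and 0.868 for CFI).

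The membrane regulators hardly moved in HepG2. CD46 stood at 463, 432 and 437 CPM in CD146oe libraries, against 469, 477 and 489 CPM in pLVX libraries. The groups were adjacent without overlap, with a log2 fold change of -0.11 (SE 0.03, edgeR adjusted p = 0.0117). CD59 stood at 128, 133 and 133 CPM in CD146oe libraries and 129, 118 and 120.2 CPM in pLVX libraries, with overlap and no call (log2 fold change 0.10, 95% interval 0.02 to 0.18, edgeR adjusted p = 0.0598). CD55 stood at 24.7, 21.8 and 26.2 CPM in CD146oe libraries and 25.2, 21.2 and 22.1 CPM in pLVX libraries. It was not called either, with a log2 fold change of 0.11 and a 95% interval from -0.05 to 0.26 (edgeR adjusted p = 0.386).

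The C1 proteases rose. C1S stood at 51.6, 52.6 and 51.2 CPM in CD146oe libraries, against 42.2, 43.2 and 40.5 CPM in pLVX libraries. The groups were separate, with a log2 fold change of 0.30 (SE 0.05, edgeR adjusted p = 2.6e-05). C1RL stood at 75.9, 83.0 and 79.9 CPM in CD146oe libraries, against 61.2, 61.3 and 64.8 CPM in pLVX libraries, with no overlap and a log2 fold change of 0.35 (SE 0.05, edgeR adjusted p = 8.8e-08). C1R stood at 6.44, 7.96 and 8.09 CPM in CD146oe libraries, against 4.37, 6.24 and 5.04 CPM in pLVX libraries. Its groups nearly met but did not overlap, and the log2 fold change was 0.50 (SE 0.14, edgeR adjusted p = 7.1e-03). C1QBP fell slightly, at 184, 196 and 195 CPM in CD146oe libraries, against 204, 214 and 207 CPM in pLVX libraries, with a log2 fold change of -0.12 (SE 0.04, edgeR adjusted p = 0.0112).

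In the lectin pathway, MBL2 stood at 21.0, 19.9 and 17.4 CPM in CD146oe libraries, against 14.3, 16.3 and 16.9 CPM in pLVX libraries. The groups came close without overlap, and the log2 fold change was 0.28 (SE 0.09, edgeR adjusted p = 0.0151). COLEC11, a collectin that also recognises sugars, stood at 2.32, 3.02 and 2.43 CPM in CD146oe libraries, against 4.53, 3.49 and 3.87 CPM in pLVX libraries. It was lower without overlap, with a log2 fold change of -0.61 (SE 0.19, edgeR adjusted p = 0.0175). MASP1, the protease that activates MASP-2, averaged 1.40 ± 0.154 CPM in CD146oe libraries and 0.750 ± 0.192 CPM in pLVX libraries and was not called (log2 fold change 0.89, 95% interval 0.23 to 1.54, edgeR adjusted p = 0.0525). MASP2 averaged 18.5 ± 0.936 CPM in CD146oe libraries and 16.2 ± 1.09 CPM in pLVX libraries and was not called (edgeR adjusted p = 0.112).

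None of the 4 terminal components tested was called. C5 averaged 323 ± 6.46 CPM in CD146oe libraries and 332 ± 13.5 CPM in pLVX libraries, with a log2 fold change of -0.04 and a 95% interval from -0.11 to 0.02 (edgeR adjusted p = 0.445). Among the chains of C8, C8A averaged 46.2 ± 2.87 CPM in CD146oe libraries and 43.8 ± 0.679 CPM in pLVX libraries (edgeR adjusted p = 0.382). C8B averaged 15.8 ± 2.23 CPM in CD146oe libraries and 18.6 ± 0.921 CPM in pLVX libraries (edgeR adjusted p = 0.0502), and C8G 3.85 ± 0.453 CPM in CD146oe libraries and 5.13 ± 0.368 CPM in pLVX libraries (edgeR adjusted p = 0.0585). C6 was read at 0.579, 0.737 and 1.10 CPM in CD146oe libraries and 0.243, 0.122 and 0.511 CPM in pLVX libraries and was not tested.

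Of the 18 hepatocyte markers, 3 rose and 8 fell by edgeR's test, which is 61.1% called against 19.8% of all genes tested. The median log2 fold change of the list was -0.03. ALB was lower, at 15277 to 15641 CPM in CD146oe libraries and 20885 to 21671 CPM in pLVX libraries. FGA went the other way, at 2784 to 2832 CPM in CD146oe libraries and 2409 to 2487 CPM in pLVX libraries. Markers of other cells moved as well. The cholangiocyte markers summed to 1224 to 1257 CPM in CD146oe libraries and 900.3 to 1002 CPM in pLVX libraries. The leukocyte and macrophage markers summed to 993 to 1061 CPM in CD146oe libraries and 1276 to 1341 CPM in pLVX libraries, with a mean of at least 10 CPM in 1 of the 10, LYZ, and CD163 and MARCO at 0 in both groups. The endothelial markers summed to 6.85 to 7.51 CPM in CD146oe libraries and 5.84 to 8.06 CPM in pLVX libraries, and the fibroblast markers to 39.5 to 48.5 CPM in CD146oe libraries and 32.0 to 33.3 CPM in pLVX libraries. Their part in the results was not tested.

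Whether the genes followed CD146 in the same way in both systems was tested in a fit of all 12 libraries, as the effect of higher CD146 in HepG2 (CD146oe minus pLVX) minus that in the libraries labelled Hep3B (Con sh minus CD146 sh). Line and way of changing CD146 are confounded in it. The size of the change was unequal too, with a MCAM log2 fold change of 6.37 for CD146oe over pLVX and -2.25 for CD146 sh over Con sh. Of the 33 members 28 were tested, and the difference was above 0 for 14 and below 0 for 1 by edgeR's adjusted p, while 36.4% of the 18870 genes tested were called, 17.2% above 0 and 19.2% below. For the membrane regulators the difference was 1.43 for CD59 (SE 0.06, edgeR adjusted p = 8.0e-28), 1.00 for CD55 (SE 0.09, edgeR adjusted p = 3.9e-14) and 0.90 for CD46 (SE 0.06, edgeR adjusted p = 7.3e-20). In the fits of each line alone, the log2 fold change of CD146oe over pLVX was 0.10 for CD59 and 0.11 for CD55, neither called, and -0.11 for CD46, while that of CD146 sh over Con sh was 1.32 for CD59, 0.89 for CD55 and 1.00 for CD46. C1S and C1RL were higher with less CD146 in the libraries labelled Hep3B and with more CD146 in HepG2, and differed by 1.00 for C1S (edgeR adjusted p = 7.6e-09) and 0.93 for C1RL (edgeR adjusted p = 1.2e-12). C3, C4BPA, CLU and CFB moved opposite to CD146 in both systems but by unequal amounts, with a difference of 0.96 for C3, 0.65 for C4BPA, 0.58 for CLU and 1.18 for CFB. C2 and CFD gave no call, with differences of 0.06 (95% interval -0.45 to 0.57, edgeR adjusted p = 0.925) for C2 and 0.13 (95% interval -0.31 to 0.57, edgeR adjusted p = 0.711) for CFD.

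Levels of the control groups set the lines apart. In Con sh libraries labelled Hep3B against pLVX libraries of HepG2, where line, medium and vector are confounded, edgeR called all 28 members tested, 8 higher and 20 lower, in a comparison in which 83.2% of the 18870 genes tested were called, 43.4% higher and 39.7% lower, and the groups did not overlap in 84.6%. The median log2 fold change was -2.96 over the members and 0.08 over all genes tested, and 0.39 over all genes tested on unscaled totals. The filter on low counts ran over all 12 libraries here. MBL2, COLEC11, MASP1, C4A, C4B, C8A, C8B, C8G, SERPING1 and CFI passed it only through HepG2. CFP and C5AR1 passed it only through the libraries labelled Hep3B. Their calls, and in part the count of 28 and the member median, therefore follow from the filter and are no separate evidence. CD55 stood furthest apart on the higher side among abundant members, at 1023 ± 51.8 CPM on unscaled totals in Con sh libraries and 22.2 ± 1.93 CPM in pLVX libraries (SD, n = 3 each), with a log2 fold change of 5.22 (SE 0.06, edgeR adjusted p = 3.6e-58). CD46 averaged 1426 ± 44.0 CPM in Con sh libraries and 466 ± 11.7 CPM in pLVX libraries, CD59 357 ± 8.37 CPM in Con sh libraries and 119 ± 4.92 CPM in pLVX libraries, and C4BPB 294 ± 7.68 CPM in Con sh libraries and 90.5 ± 3.46 CPM in pLVX libraries. Their log2 fold changes were 1.30 for CD46, 1.27 for CD59 and 1.38 for C4BPB. Unless stated otherwise, log2 fold changes between lines come from the TMM-scaled fit, so they do not equal the ratios of the unscaled means. C5AR1 averaged 5.26 ± 0.418 CPM in Con sh libraries and 0.732 ± 0.363 CPM in pLVX libraries. CFP averaged 1.58 ± 0.289 CPM in Con sh libraries and was at or under the floor in pLVX libraries. On unscaled totals this makes it at least 6.75-fold higher in Con sh libraries, against a floor of 3 counts in the shallowest pLVX library. With TMM scaling that bound would be smaller.

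Most secreted components were lower in Con sh libraries. Factor D (CFD) went the other way, with a mean of 9.05 ± 0.428 CPM in Con sh libraries and 3.07 ± 0.197 CPM in pLVX libraries. C3 averaged 68.3 ± 2.23 CPM in Con sh libraries and 3989.9 ± 86.4 CPM in pLVX libraries, with a log2 fold change of -6.18 (SE 0.05, edgeR adjusted p = 4.8e-64). C5 averaged 10.7 ± 1.01 CPM in Con sh libraries and 323 ± 13.6 CPM in pLVX libraries, C2 1.20 ± 0.311 CPM in Con sh libraries and 135 ± 4.92 CPM in pLVX libraries, and CFB 3.99 ± 0.316 CPM in Con sh libraries and 68.0 ± 2.14 CPM in pLVX libraries. Their log2 fold changes were -5.23 for C5, -7.13 for C2 and -4.41 for CFB. On unscaled totals and against a floor of 3 counts in the shallowest Con sh library, CFI was at least 534-fold lower in Con sh libraries. C4B was lower at least 212-fold, C8A at least 196-fold, C8B at least 83.2-fold, MBL2 at least 70.9-fold and COLEC11 at least 17.7-fold. C1QBP was the member nearest to equal, with a log2 fold change of 0.13 (SE 0.04, edgeR adjusted p = 3.2e-03) that came to 0.44 on unscaled totals.

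Genes related to complement were counted from fixed lists. Of 21 other complement genes, 4 were tested after knockdown, 2 rose and none fell, while 55.3% of all genes tested were called. VTN, which encodes vitronectin, an inhibitor of the terminal complex, averaged 7.29 ± 0.166 CPM in CD146 sh libraries and 0.820 ± 0.286 CPM in Con sh libraries (n = 3 each), with a log2 fold change of 3.11 (edgeR adjusted p = 7.0e-16), and overlaps SARM1. ITGB2, the beta chain of complement receptors 3 and 4, averaged 5.59 ± 0.719 CPM in CD146 sh libraries and 3.38 ± 0.291 CPM in Con sh libraries (log2 fold change 0.71, edgeR adjusted p = 3.0e-04, n = 3 each). After overexpression, where 19.8% of all genes tested were called, 5 were tested, none rose and 2 fell, ITGB2 with a log2 fold change of -0.36 (edgeR adjusted p = 0.0275) and PROS1, the gene of the protein S that binds C4b-binding protein, with -0.24 (edgeR adjusted p = 8.2e-05).

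Genes of IL-6, NF-kB and interferon signalling, which are known to control several complement genes, were called about as often as other genes after knockdown. Of 26, 25 were tested, 8 rose and 7 fell, which is 60.0% called against 55.3% of all genes tested, with a median log2 fold change of 0.02. TNFAIP3, an NF-kB target and inhibitor, averaged 68.9 ± 1.35 CPM in CD146 sh libraries and 26.6 ± 1.43 CPM in Con sh libraries (edgeR adjusted p = 5.7e-22, n = 3 each). SOCS3, a feedback inhibitor of IL-6 signalling, averaged 28.4 ± 2.02 CPM in CD146 sh libraries and 15.7 ± 2.10 CPM in Con sh libraries. IFNAR1, a chain of the type I interferon receptor, fell to 74.3 ± 2.05 CPM in CD146 sh libraries, against 119 ± 5.46 CPM in Con sh libraries. Of 16 interferon-stimulated genes 13 were tested, 7 rose and 2 fell, which is 69.2% called against the same 55.3%, with a median of 0.35. IFI6, an interferon-induced mitochondrial protein gene, averaged 10.3 ± 0.987 CPM in CD146 sh libraries and 4.13 ± 0.454 CPM in Con sh libraries.

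In HepG2, 25 genes of the signalling list were tested, 6 rose and 3 fell, with 36.0% called and a median of 0.12. Of 15 interferon-stimulated genes tested 4 rose and none fell, with 26.7% called and a median of 0.17. Over all genes tested there 19.8% were called, 9.55% higher and 10.3% lower. GBP1, a guanylate-binding protein gene, averaged 5.41 ± 0.603 CPM in CD146oe libraries and 1.34 ± 0.200 CPM in pLVX libraries, with a log2 fold change of 1.99 (edgeR adjusted p = 3.0e-11, n = 3 each). IRF1, an interferon-responsive transcription factor, averaged 9.48 ± 0.0501 CPM in CD146oe libraries and 5.99 ± 0.448 CPM in pLVX libraries.

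Of 22 genes of GPI anchor synthesis, the anchor that CD55 and CD59 need, 21 were tested in each system. After knockdown 10 rose and 3 fell, which is 61.9% called against 55.3% of all genes tested, with a median of 0.12, and PIGN fell to 44.0 ± 0.545 CPM in CD146 sh libraries, against 72.8 ± 6.04 CPM in Con sh libraries. After overexpression 2 rose and none fell, which is 9.52% called against 19.8% of all genes tested, with a median of -0.04. Of 13 liver-enriched transcription factors, 7 were tested after knockdown, none rose and 3 fell, which is 42.9% called against 55.3% of all genes tested, with CEBPA at 4.60 ± 0.334 CPM in CD146 sh libraries and 8.05 ± 1.20 CPM in Con sh libraries. In HepG2 all 13 were tested, 4 rose and none fell, which is 30.8% called against 19.8% of all genes tested.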

How the data were processed

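Raw counts per Ensembl gene ID and FPKM rounded to 2 decimals were deposited by the authors for all 12 libraries. HISAT2 2.2.1, HTSeq 0.6.1 and cutadapt 1.9.1 appear in the submitters' processing notes. Build, annotation and strand setting are not given in the sources used here, so reads of overlapping or antisense genes may have been shared or lost. Symbols were matched for 61757 of 61806 IDs, and positions come from GENCODE version 29 (GRCh38). Counts were tested with edgeR 4.0.16 in R 4.3.3 (TMM, filterByExpr, quasi-likelihood, 2-sided, Benjamini-Hochberg over all genes tested, threshold 0.05), each line alone, or all 12 libraries for contrasts between lines. The SE is the absolute log2 fold change over the square root of F. CPM are TMM-scaled within a line, and on unscaled totals between lines and for markers. The scripts were tested on simulated data. No pair of replicates was within sampling noise (chi-square of 1.74 to 3.93 per gene). Alternatives were DESeq2 1.42.0, no TMM, no filter, limma 3.58.1 on log2(FPKM + 0.1), a replicate block and leaving out each library. Members and gene lists were chosen with earlier results of these data known. All members may be named, and of each other list at most 4 called genes per comparison with an absolute log2 fold change of at least 0.58 and at least 5 CPM, by smallest adjusted p; ITGB2 and PROS1 in HepG2 and the neighbours on chromosome 1 were named after their values were seen.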

Additional observations from a re-analysis of the deposited data

Results flagged for a closer look

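For 15 of the 28 complement genes tested, the effect of higher CD146 in HepG2 (CD146oe minus pLVX) differed from that in the libraries labelled Hep3B (Con sh minus CD146 sh) by edgeR's test of the difference itself. That is 53.6% called, against 36.4% of the 18870 genes tested. On the log2 scale the difference was 1.43 for CD59, 1.00 for CD55, 0.90 for CD46, 0.99 for C4BPB, 0.65 for C4BPA and 0.58 for CLU. It was 1.18 for CFB, 0.96 for C3, 0.68 for C5 and 0.84 for MASP2. For the C1 proteases it was 1.00 for C1R, 1.00 for C1S and 0.93 for C1RL, and for C1QBP, the 1 value below 0, it was -0.46. For MASP1 it was 2.31 (edgeR adjusted p = 0.0103), resting on at most 10 counts in a library labelled Hep3B. MASP1 lost its call without Con sh replicate 3 (1.73, edgeR adjusted p = 0.0632) or without CD146 sh replicate 1 (1.99, edgeR adjusted p = 0.0636), and stood at 4.23 without Con sh replicate 1. In all 15, line, medium, way of changing CD146 and size of its change cannot be told apart.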

How the results depend on the processing

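Of the calls on complement genes, 16 of 17 were kept under all 11 alternatives after knockdown, the exception being C1R, 8 of 14 after overexpression, 14 of 15 for the difference between systems and 27 of 28 between control groups. After overexpression C2 kept its call in 4 of 11 alternatives, CD46 and COLEC11 in 6, C1R and C1QBP in 7 and MBL2 in 8. Without TMM scaling or on FPKM, C1QBP, CD46 and C2 were not called. C1QBP lost its call between control groups under the replicate block and without Con sh replicate 1 or 2. DESeq2 called 1839 genes after overexpression, against 3037 by edgeR, and 2 members as higher, against 4. Without TMM scaling 7 members were higher there, and limma on log2(FPKM + 0.1) called 6 lower, against 10, and 3 members below 0 for the difference between systems, against 1. Causes were not tested. With a library left out, genes called numbered 8645 to 8894 after knockdown, 2262 to 2675 after overexpression, 6251 to 6631 for the difference and 15332 to 16063 between control groups. Members higher and lower were 14 to 15 and 2 after knockdown, 3 to 5 and 7 to 11 after overexpression, 14 to 15 and 1 for the difference, and 7 to 8 and 20 to 21 between control groups. The correlation of deviations was -0.0347 to 0.0978 for same-numbered libraries and -0.0904 to 0.0584 for libraries of different number. The highest value, 0.0978, was that of the replicates 1 labelled Hep3B, and the main fits used no pairing. With the replicate block 9543 genes were called after knockdown, 2947 after overexpression, 6847 for the difference and 14479 between control groups. Genes under a few CPM, such as CFP and MASP1, are limited by depth.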
